A study of Mus musculus with 16 samples.

Results

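Id2, Tbx21, Eomes, Zeb2, Bhlhe40 and Rora are transcription regulators of effector and tissue-resident T cells. They were chosen by name and are 6 of the 9428 genes in the lymph node gene table; all 6 had a row in it. They were followed across all 3266 cells together with 3 partner genes: Itgae, the CD103 integrin chain of many resident T cells, Gzmb, the cytotoxic protease granzyme B, and Klra7, a Ly49 receptor. The cells came from C57BL/6 mice, 16 weeks old, and were sorted as CD8+CD44+ T cells. The mice had melanoma-associated vitiligo, in which pigment cells of the skin are lost to the immune response raised against a melanoma. Tissue was taken 45 days after tumor surgery, and lymph nodes were dissociated mechanically. The 16 samples of the study are 4 lanes each of 4 libraries: lymph node RNA, lymph node T cell receptor, skin RNA and skin T cell receptor. Expression was read here from the lymph node RNA library, and the receptor tables of both tissues gave the clones. No group of mice without vitiligo is among these samples; how many mice were pooled is not stated. The lanes are 1 library. Differences below therefore have no replicate check and no test, and every interval is a 95% interval that covers counting error only.

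The 6 regulators act at different steps. Tbx21 encodes T-bet and Eomes encodes eomesodermin, related T-box factors that switch on cytotoxic and interferon gamma genes in CD8 T cells. T-bet is tied to effector cells and eomesodermin more to memory cells, and both are known to be low in resident memory cells. Zeb2 is a zinc finger repressor that works with T-bet in terminally differentiated effector cells. Id2 has no DNA-binding region of its own and acts by binding and blocking E proteins such as those of Tcf3 and Tcf12; its relative Id3 marks memory precursors. Bhlhe40 is a basic helix-loop-helix repressor that binds E-box sequences and supports cytokine production and mitochondrial fitness in resident cells. Rora encodes the nuclear receptor RORalpha, known from type 17 T cells, innate lymphoid cells and the circadian clock.

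Positions are those of GENCODE M21 on the build mm10. Id2 lies on chromosome 12 from 25093799 to 25097140 on the minus strand, and Tbx21 on chromosome 11 from 97098071 to 97115331, also minus. Eomes lies on chromosome 9 from 118478212 to 118486132 and Rora on the same chromosome from 68653786 to 69388246, both on the plus strand. Zeb2 spans chromosome 2 from 44983632 to 45117395 on the minus strand, and Bhlhe40 chromosome 6 from 108660629 to 108666925 on the plus strand. Promoter sequences of the RefSeq table (GRCm38.p6) were matched by symbol for 5 of the 6 genes. Those of the pair that was high together in the cells described below, Id2 and Rora, and of the T-box pair are printed 5′ to 3′ on the gene's own strand. Capitals mark matches to the searched motifs.
Id2, chr12:25096254-25096342, minus strand: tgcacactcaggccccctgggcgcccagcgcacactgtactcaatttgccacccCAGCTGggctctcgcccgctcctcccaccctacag
Rora, chr9:68653536-68653785, plus strand: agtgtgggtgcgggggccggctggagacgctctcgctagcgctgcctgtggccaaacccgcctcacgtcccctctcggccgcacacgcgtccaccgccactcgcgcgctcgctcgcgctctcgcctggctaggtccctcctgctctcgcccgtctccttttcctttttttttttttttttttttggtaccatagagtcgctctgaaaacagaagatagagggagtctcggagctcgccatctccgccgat
Tbx21, chr11:97115332-97115581, minus strand: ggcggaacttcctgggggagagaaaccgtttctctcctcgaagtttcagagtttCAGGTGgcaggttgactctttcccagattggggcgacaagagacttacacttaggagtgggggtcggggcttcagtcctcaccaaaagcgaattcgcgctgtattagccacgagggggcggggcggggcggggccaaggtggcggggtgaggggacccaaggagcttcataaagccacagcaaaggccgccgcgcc
Eomes, chr9:118477939-118478188, plus strand: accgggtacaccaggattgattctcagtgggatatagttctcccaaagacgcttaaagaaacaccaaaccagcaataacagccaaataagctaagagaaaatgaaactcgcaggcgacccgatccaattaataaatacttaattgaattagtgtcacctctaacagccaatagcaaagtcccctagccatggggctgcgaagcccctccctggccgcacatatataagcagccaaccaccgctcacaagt
The stretches are counted from the starts of the RefSeq table, which differ from the GENCODE gene ends for Id2 and Eomes. They hold the 250 bases before that start, except that of Id2, which runs from 250 to 162 bases before it because the other 161 bases belong to an annotated exon. The Id2 stretch lies inside the GENCODE gene span given above, outside any annotated exon. Searched on both strands were the general E-box, CANNTG. Its form CAGGTG, bound by zinc finger repressors such as Zeb2, and its form CACGTG, bound by Bhlhe40, were counted as well and overlap the general E-box. The half-site of RORalpha was searched as AGGTCA. That of T-box factors was searched as GGTGTGA. The Id2 stretch held 1 E-box and the Tbx21 stretch held 1 CAGGTG E-box, while the Rora and Eomes stretches held no match to these letters. Among 32841 promoters of the table, CANNTG was found in 66.2%, CAGGTG in 17.2%, CACGTG in 6.0%, AGGTCA in 14.0% and GGTGTGA in 3.3% of 250-base windows, and CANNTG in 33.0% of windows cut like that of Id2. A match is a description of the letters and not a binding site.

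The library held 14556622 UMIs (unique molecular identifiers, 1 per captured RNA molecule), at a median of 4423 per cell (461 to 12576). A receptor beta chain (TRB) contig was found for 88.9% of cells, and 315 cells carried at least 2 TRB sequences, as pairs of cells in 1 droplet can. Of the genes used for the sort, Cd3e had a UMI in 95.3% of cells, Cd8b1 in 96.6%, Cd8a in 83.0% and Cd44 in 26.0%. The lymph node and skin receptor tables shared 12 barcodes, none with a common CDR3. The gene table has no cell type that should lack these regulators; as a reference for free RNA, Ighm, a B cell gene, had a UMI in 47.6% of cells. Shares near such a background cannot be read as expression by themselves, so each comparison is between classes of cells of the same library.

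Id2, Eomes and Tbx21 were each found in a sizeable minority of cells, and the other regulators were rare. Id2 had a UMI in 773 cells (23.7%, interval 22.2 to 25.2), with 1519 UMIs or 104 CPM (UMIs per 1000000 UMIs of the cells concerned). Eomes had one in 901 cells (27.6%, 26.1 to 29.2) at 85.5 CPM, and Tbx21 in 555 cells (17%, 15.7 to 18.3) at 45.9 CPM. Rora was found in 95 cells (2.91%, 2.36 to 3.54), Bhlhe40 in 63 (1.93%, 1.49 to 2.46) and Zeb2 in 35 (1.07%, 0.748 to 1.49). The genes also differed in how UMIs were spread over cells. A single Id2-positive cell held up to 15 UMIs, and 61.2% of Id2-positive cells had exactly 1. Tbx21 never passed 4 UMIs in a cell, with 82.7% of positive cells at 1 UMI, and Eomes never passed 6, with 72.4% at 1. Cells with Tbx21 or Eomes were deeper than cells without, with medians of 5077 against 4276 and 4974 against 4195 UMIs, while Id2-positive and Id2-negative cells had medians of 4337 and 4437. Drawing 1500 UMIs from each of the 3090 cells that had so many (thinning) gave shares of 12.2% for Id2, 7.22% for Tbx21, 11.2% for Eomes, 1.33% for Rora, 1.04% for Bhlhe40 and 0.615% for Zeb2. None of the 6 was found in 1470 cells (45.0%), 1 in 1263 and 2 in 449. There were 77 cells with 3 of them, 5 with 4 and 2 with 5.

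Cells were grouped into 8 clusters without the 6 regulators and the 3 partners, so these genes did not set the clusters. Cluster 6, the smallest but one (150 cells, 4.59% of all), held the highest level of Id2, Rora, Zeb2, Bhlhe40 and Tbx21. It was led by Lgals3, Cx3cr1, Itga1, Gzma, Csf1 and Gzmb. Cluster 4 (434 cells), led by Nrn1, Wnt10a, Cd200, Izumo1r, Ctla4 and Lag3, came second for Id2 and Rora. Cluster 2 (553 cells) was led by the Ly49-region genes Klre1, Klra6 and Klra7, and clusters 5 and 7 by interferon-induced genes such as Isg15, Ifit1 and Rsad2. Cluster 6 was shallow, with a median of 2378 UMIs against 3184 in cluster 4 and 3980 to 5474 in the others.

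Id2 stood at 1001 CPM in cluster 6 (916 to 1092) and 232 CPM in cluster 4 (209 to 257). In clusters 7, 2, 3, 0, 5 and 1 it stood at 80.0, 63.3, 54.4, 50.8, 42.1 and 40.2 CPM. In cluster 6 it was thus 13.9 times its level in all other cells (12.5 to 15.5) and was found in 80.7% of cells. Rora followed the same order at the top, with 77.1 CPM in cluster 6 (54.9 to 105.5) and 19.5 in cluster 4 (13.2 to 27.6), and between 0.637 and 6.09 CPM in clusters 0, 1, 2, 3 and 5. No Rora UMI was seen among the 47 cells of cluster 7, where the interval of the share reaches 7.55%. Cluster 6 exceeded the other cells 17.2-fold for Rora (11.2 to 26.1).

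Zeb2 had 14 of its 41 UMIs in cluster 6, at 27.7 CPM (15.1 to 46.5), and lay between 0.772 and 2.78 CPM in clusters 0 to 5. Bhlhe40 was high in 3 clusters whose intervals overlap: 23.7 CPM in cluster 6 (12.3 to 41.5), 19.0 in cluster 7 (6.18 to 44.4, from 5 UMIs) and 18.2 in cluster 4 (12.2 to 26.2). In cluster 5 none of 336 cells had a Bhlhe40 UMI, and the interval of the share reaches 1.09%. The T-box genes spread less. Tbx21 ranged from 27.0 CPM in cluster 4 and 28.7 in cluster 5 to 62.1 in cluster 3 and 73.2 in cluster 6 (51.5 to 101), and the intervals of the upper clusters overlap. Eomes, like Tbx21, was high in clusters 3 and 2 and low in cluster 4, but not high in cluster 6. It stood at 118 CPM in cluster 3 and 114 in cluster 2, 63.7 to 87.6 in clusters 0, 1, 5 and 7, and 37.1 in cluster 4 and 35.6 in cluster 6 (21.1 to 56.3).

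**Figure D1:**
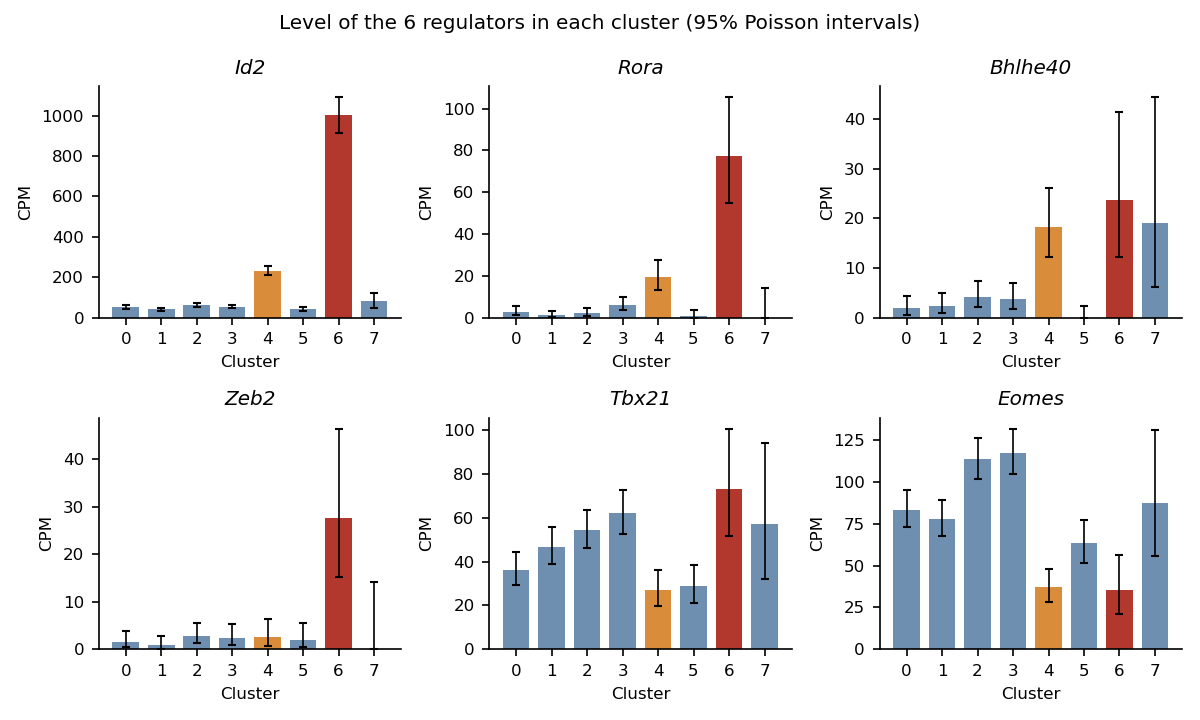
CPM of each regulator (vertical axis, from 0, scaled per gene) in the 8 clusters, with 95% Poisson intervals; cluster 6 is red, cluster 4 orange and the others blue. Id2, Rora and Zeb2 peak in cluster 6, Bhlhe40 is high in clusters 4, 6 and 7, and Eomes is lowest in clusters 4 and 6 (37.1 and 35.6 CPM).

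Counting a gene as higher or lower at a 2-fold difference, with a prior of 1 CPM on both sides, 4 regulators were higher in cluster 6 than in the other cells (Id2, Rora, Zeb2 and Bhlhe40) against 8.95% of all genes, and Eomes was lower against 5.25%. In cluster 4, Id2, Rora and Bhlhe40 were higher against 5.13% of genes, and Eomes was lower against 1.9%. In cluster 7, Bhlhe40 was higher against 5.03%, and 2 regulators were lower against 14.8%. These were Zeb2 and Rora, with 0 UMIs in 47 cells and intervals of the ratio up to 5.12 and 2.0. In clusters 0, 1, 2, 3 and 5 no regulator was higher, where 0.0212%, 0.0%, 0.276%, 1.05% and 0.212% of genes were. The regulators lower there numbered 3, 4, 1, 1 and 3, against 3.36%, 2.1%, 2.05%, 0.626% and 3.73% of genes. The other cells in these comparisons include clusters 4 and 6, which held 369 and 506 of the 1519 Id2 UMIs. The lower calls therefore depend in part on the levels in those clusters. Thinned to equal depth, cluster 6 had 75.4% of cells with Id2, 14.4% with Rora and 17.8% with Tbx21, while Eomes was left in 2 of 118 cells (1.69%). Cluster 4 had 27.0% with Id2, 4.21% with Rora, 3.96% with Tbx21 and 4.95% with Eomes.

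Marker genes of other cells were set beside these levels. Both gamma delta T cell markers with a row stood higher in cluster 6: Trgv2 at 140 against 4.55 CPM in the other cells and Cd163l1 at 33.6 against 24.3. In sum, 2 of 9 listed gamma delta markers gave 174 CPM in cluster 6 and 30.8 in the clusters other than 4 and 6. The corresponding sums were 154 and 92.0 for 4 of 9 myeloid genes, 247 and 215 for 6 of 9 B cell genes, 91.0 and 11.6 for 3 of 5 CD4 and regulatory T cell genes, and 1970 and 1270 for 3 of 6 natural killer genes, of which Eomes is 1. In cluster 4 the sums were 133 CPM for CD4 and regulatory genes and 354 for B cell genes, above those of cluster 6. For gamma delta, myeloid and natural killer genes they were 13.8, 111 and 957, below those of cluster 6. None of these genes was at 0 in cluster 6, but members of a list went different ways. Ighm was at 77.1 CPM in cluster 6 and 175 in the other cells, and Ikzf2 at 5.93 and 16.9. Cd74 was at 103 and 21.1, H2-Ab1 at 13.8 and 0.925, H2-Eb1 at 11.9 and 1.85, and Cd40lg at 69.2 and 5.69. The natural killer sum was mostly Nkg7, at 1910 and 1140 CPM, a gene with a UMI in 92.8% of all cells. Tyrobp was at 19.8 and 4.06 and Eomes at 35.6 and 87.3. A TRB contig was found for 108 of the 150 cells of cluster 6 (72.0%). In those 108 cells, Id2 was at 1038 CPM (87.0% of cells) and Rora at 83.6, against 868 (64.3%) and 54.3 in the 42 cells without a contig. Tbx21 was at 88.6 CPM with a contig and 18.1 without, and Eomes at 22.8 and 81.4. The Id2 and Rora levels were thus as high in the cells with a TRB contig. Trgv2 was also high in those cells, at 165 CPM (27.8% of cells) against 54.3 (11.9%) without a contig. The part of the gamma delta and other markers in the result was not tested.

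The first partner comparison asked which regulators were found with Itgae. Cells with an Itgae UMI had more Id2, Rora, Zeb2 and Bhlhe40, less Eomes and about the same Tbx21. Itgae was found in 384 cells, at a median depth of 3682 UMIs against 4471 in the other 2882. Id2 was at 356 CPM with Itgae and 73.3 without, a ratio of 4.86 (4.37 to 5.39), and in 48.4% against 20.4% of cells. Rora was at 30.04 against 4.17 CPM, a ratio of 7.21 (4.78 to 10.8). Zeb2 stood 5.19-fold higher (2.59 to 10.1) and Bhlhe40 3.39-fold (1.99 to 5.61). Eomes was at 45.7 against 90.4 CPM, a ratio of 0.505 (0.393 to 0.641), and in 13.8% against 29.4% of cells. Tbx21 was at 45.1 against 46.0 CPM, a ratio of 0.98 (0.756 to 1.25). At 2-fold, 4 regulators were higher, against 3.69% of all genes, and none was lower, against 0.679%.

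Itgae-positive cells were spread unevenly over the clusters. Cluster 6 held 27.9% and cluster 4 held 37.0% of them. Within cluster 6 the Id2 ratio was 1.27 (1.02 to 1.58), and within cluster 4 it was 0.856 (0.681 to 1.07). In the clusters other than 4 and 6, Id2 was 1.75-fold higher with Itgae (1.31 to 2.30) and Rora 4.95-fold (1.81 to 11.8, from 7 against 25 UMIs). There 2 regulators, Rora and Zeb2, passed 2-fold against 2.73% of genes. Zeb2 did so on 3 against 20 UMIs, with an interval that includes 1 (ratio 2.65, 0.505 to 8.95). Eomes kept a ratio of 0.289 (0.119 to 0.614) within cluster 4, but 0.809 (0.598 to 1.07) in the clusters other than 4 and 6. After thinning, the Eomes ratio with Itgae was 0.213 (0.0687 to 0.501) and the Tbx21 ratio 0.624 (0.282 to 1.21), while in cells at or above the median depth the log2 ratio of Eomes was -0.46, against -0.97 in all cells. The thinned Zeb2 ratio was 1.77 (0.199 to 7.37, from 2 UMIs), below 2-fold, which left 3 regulators higher. Marker sums in Itgae-positive and Itgae-negative cells were 72.6 and 29.2 CPM for gamma delta genes, 115 and 17 for CD4 and regulatory genes and 307 and 222 for B cell genes; their part in the result was not tested. With cells that had a TRB contig only, the log2 ratios of Id2 and Rora were 2.27 and 2.49, against 2.26 and 2.59 in all cells.

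Granzyme B was found in 83 cells, 46 of them (55.4%) in cluster 6, and these cells stood out for all regulators but Eomes. Id2 was at 626 CPM with Gzmb and 91.4 without, a ratio of 6.85 (5.91 to 7.91), and in 62.7% against 22.7% of cells. Tbx21, which sat level with Itgae, was at 96.8 against 44.6 CPM with Gzmb, a ratio of 2.17 (1.49 to 3.06). Bhlhe40 stood 6.64-fold higher (3.16 to 12.7), Zeb2 8.33-fold (3.11 to 19.1, from 7 UMIs) and Rora 4.40-fold (2.04 to 8.45). Eomes was at 65.5 against 86.0 CPM, a ratio of 0.762 (0.481 to 1.15). So 5 regulators were higher at 2-fold, against 7.32% of all genes, and none lower, against 7.11%. Tbx21 was near the limit, with a log2 ratio of 1.1, or 0.97 with a prior of 10 CPM. In the 37 Gzmb-positive cells outside cluster 6, Tbx21 was 2.16-fold higher (1.27 to 3.44) and Bhlhe40 6.03-fold (1.89 to 14.9, from 5 UMIs in 2 cells), whereas the Id2 ratio was 1.41 (0.843 to 2.21). There 3 regulators passed 2-fold against 8.15% of genes, the third being Zeb2 with 1 UMI (ratio 2.83, 0.069 to 17.2). The same 3 passed outside clusters 4 and 6, against 8.86%, where Bhlhe40 had 3 UMIs in 1 cell and Zeb2 1 UMI. Within cluster 6 the Gzmb ratio was 1.39 for Id2 (1.16 to 1.66) and 1.60 for Tbx21 (0.783 to 3.23). Gamma delta marker sums were 145 CPM with Gzmb and 31.2 without, and natural killer sums 1910 and 1240. The natural killer sum is mostly Nkg7, which held 17011 of its 18322 UMIs over all cells. Of the other natural killer genes with a row, Eomes was lower with Gzmb, as given above, and Tyrobp had no UMI there. The part of these markers in the result was not tested.

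Cells with both Itgae and Gzmb had the most Id2. Both were found in 43 cells, where the product of their shares would give 9.76. Id2 was found in 88.4% of these 43 cells (74.9 to 96.1) at 1037 CPM. It was found in 43.4% of the 341 cells with Itgae alone (274 CPM), 35% of the 40 cells with Gzmb alone (234 CPM) and 20.2% of the 2842 cells with neither (71.1 CPM). Tbx21 had another order: 35% with Gzmb alone, 18.6% with both, 17.1% with neither and 14.1% with Itgae alone. Rora was found in 16.3% of cells with both, 10.6% with Itgae alone, 5.0% with Gzmb alone and 1.76% with neither.

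Klra7 marked a different set of cells. Of the 262 cells with Klra7, 37.8% were in cluster 2, 2 in cluster 6 and 5 in cluster 4, and their median depth was 4932 against 4380 UMIs. Eomes was at 110 against 82.9 CPM, a ratio of 1.33 (1.12 to 1.58), and was found in 37.0% against 26.8% of cells. Tbx21 was at 57.3 against 44.7 CPM, a ratio of 1.28 (1.0 to 1.62). Id2 was at 61.7 against 109 CPM, a ratio of 0.567 (0.450 to 0.706). Outside clusters 4 and 6 the Id2 ratio was 0.976 (0.746 to 1.26), while that of Eomes was 1.24 (1.04 to 1.47). Zeb2, Bhlhe40 and Rora had ratios of 1.33, 1.57 and 0.705, with intervals that include 1. No regulator passed 2-fold in either direction, against 0.318% of genes higher and 2.98% lower. After thinning, Id2 passed on the lower side with a ratio of 0.441 (0.210 to 0.817, from 10 UMIs) and Bhlhe40 on the higher side with 2.44 (0.477 to 7.81, from 3 UMIs). Klra7 belongs to a family of near-identical Ly49 genes, so reads of its relatives may be counted under it or lost. Klra7 was found with Itgae in 12 cells, where the product of shares would give 30.8, and with Gzmb in 2 cells against 6.66.

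**Figure D2:**
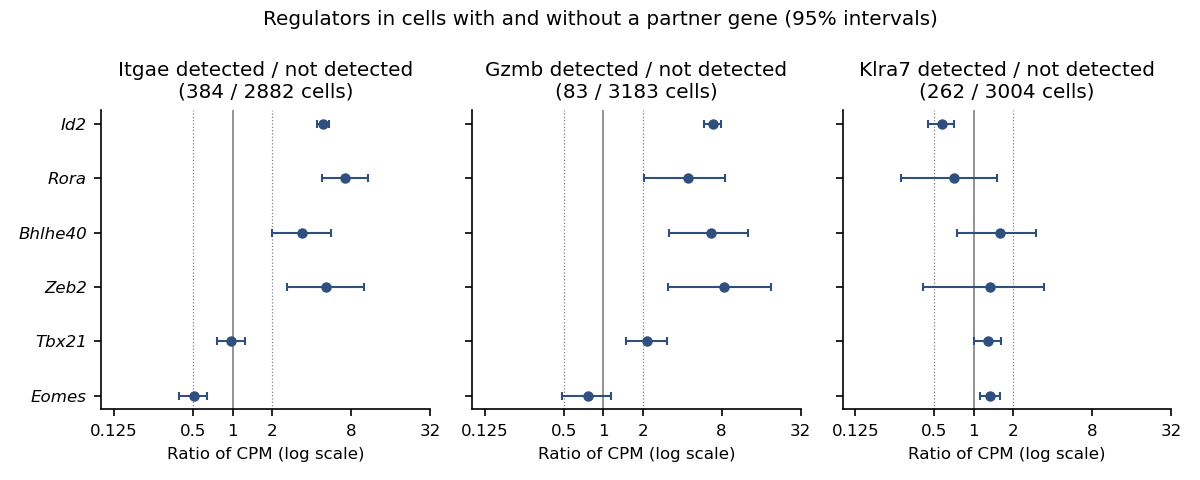
Ratio of CPM of each regulator between cells with and without Itgae, Gzmb or Klra7 (horizontal axis, log scale), with 95% intervals for counting error; the solid line is 1 and dotted lines are 0.5 and 2. Id2 is at 4.86 with Itgae, 6.85 with Gzmb and 0.567 with Klra7, Eomes at 0.505, 0.762 and 1.33, and Tbx21 passes 2 with Gzmb only.

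Cells differed in how much Id2 they held, and Itgae, Gzmb and Rora followed the amount while Klra7 did not. Itgae was found in 7.94% of 2493 cells with no Id2 UMI, 14.6% of 473 cells with 1, 27.1% of 140 with 2, 43.1% of 102 with 3 or 4 and 60.3% of 58 with at least 5. The corresponding Gzmb shares were 1.24%, 2.33%, 5.0%, 14.7% and 32.8%, and those of Rora 1.73%, 3.81%, 5.71%, 15.7% and 17.2%. Tbx21 was at 17%, 15.4%, 15.7%, 20.6% and 27.6%. Eomes stayed between 25.5% and 29.2% up to 4 Id2 UMIs and was at 10.3% at 5 or more. Klra7 was at 8.46%, 6.77%, 8.57%, 4.90% and 3.45%, with overlapping intervals. Bhlhe40 had no steady order, at 1.16%, 3.17%, 1.43%, 13.7% and 5.17%. Median depth did not follow this order, at 4437, 4518, 4057, 3176 and 4199 UMIs. The share of cells in cluster 6 did, at 1.16%, 5.07%, 12.1%, 40.2% and 67.2%.

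**Figure D3:**
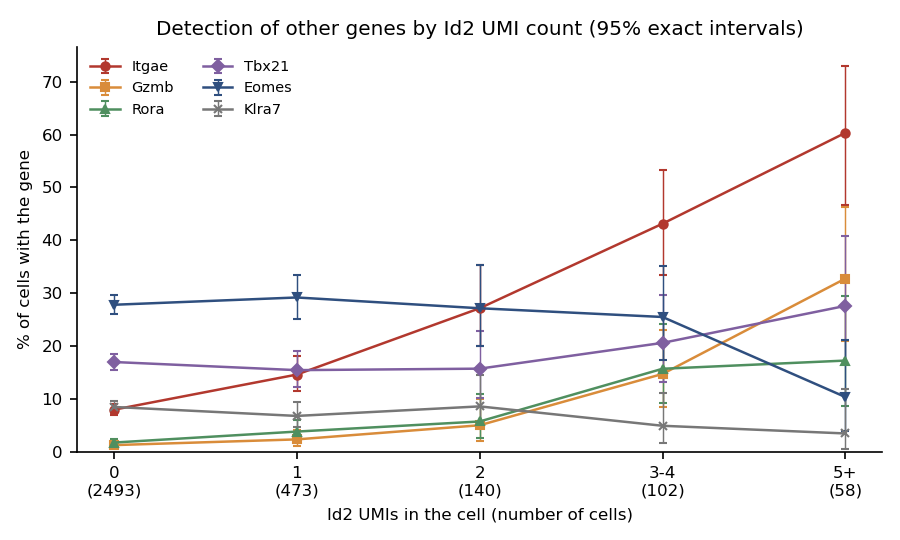
Percent of cells with a UMI of Itgae, Gzmb, Rora, Tbx21, Eomes or Klra7 (vertical axis) by the number of Id2 UMIs in the cell (horizontal axis, with the number of cells), with 95% exact intervals. Itgae goes from 7.94% to 60.3% and Gzmb from 1.24% to 32.8%, while Eomes is at 27.8% without Id2 and 10.3% at 5 or more UMIs.

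Graded by Itgae, the same genes gave a similar order. With 0, 1, 2 and at least 3 Itgae UMIs, Id2 was found in 20.4%, 40.6%, 57.1% and 62.3% of cells and Rora in 1.80%, 8.04%, 12.1% and 20.3%. Eomes was found in 29.4%, 14.3%, 13.2% and 13.0%, so that most of the difference in shares lay between 0 and 1 UMI. By level, Eomes was at 90.4, 44.6, 36.7 and 60.6 CPM in these cells. Graded by Eomes, Klra7 was found in 6.98%, 9.51%, 11.8% and 19.7% of cells with 0, 1, 2 and at least 3 Eomes UMIs. Tbx21 was found in 15.9%, 17.3%, 25.8% and 28.2% of the same cells, whose median depth went from 4195 to 5982 UMIs.

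The balance of the T-box factors was read from cells in which exactly 1 of the pair was found. Tbx21 alone was found in 376 cells (11.5%), Eomes alone in 722 (22.1%), both in 179 (5.48%) and neither in 1989 (60.9%). Tbx21-only cells were thus 34.2% of the 1098 cells with 1 of the pair (31.4 to 37.1), or 38.1% after thinning (33.9 to 42.5). Since capture differs between genes, this share says nothing of which factor is more abundant, and only its shifts between classes of cells are compared. The share lay between 29.8% and 36.8% in clusters 0, 1, 2, 3, 5 and 7. It was 45.8% in cluster 4 (34.0 to 58.0, 33 against 39 cells) and 75.8% in cluster 6 (57.7 to 88.9, 25 against 8 cells), or 91.3% in cluster 6 after thinning (72.0 to 98.9) and 66.7% in its cells at or above the median depth.

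The balance differed by Itgae and Gzmb, and not detectably by Klra7. It was 51.9% with Itgae (40.3 to 63.5) and 32.9% without, and 71.4% against 35.7% after thinning; in cells at or above the median depth it was 45.3% with Itgae. It was 66.7% with Gzmb (44.7 to 84.4, 16 against 8 cells) and 33.5% without. Cluster 6 held 27.9% of Itgae-positive and 55.4% of Gzmb-positive cells. In the clusters other than 4 and 6, Itgae-positive cells had 33 Tbx21 and 51 Eomes UMIs, and Itgae-negative cells 555 and 1116. With Gzmb the UMIs there were 18 and 15, and without it 570 and 1152. The part of the clusters in these shifts was not tested. Klra7-positive and Klra7-negative cells had 35.3% and 34.1%. With any Id2 UMI the share was 35.9% (30.2 to 42.0), near the 33.7% in cells without Id2. With at least 3 Id2 UMIs it was 54.5% (40.6 to 68.0). Of the cells with 3 or 4 Id2 UMIs, 40.2% were in cluster 6, and of those with at least 5, 67.2%. Rora-positive cells had 51.6% (33.1 to 69.8) and Bhlhe40-positive cells 55.0% (31.5 to 76.9), both with intervals that include the share of all cells.

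**Figure D4:**
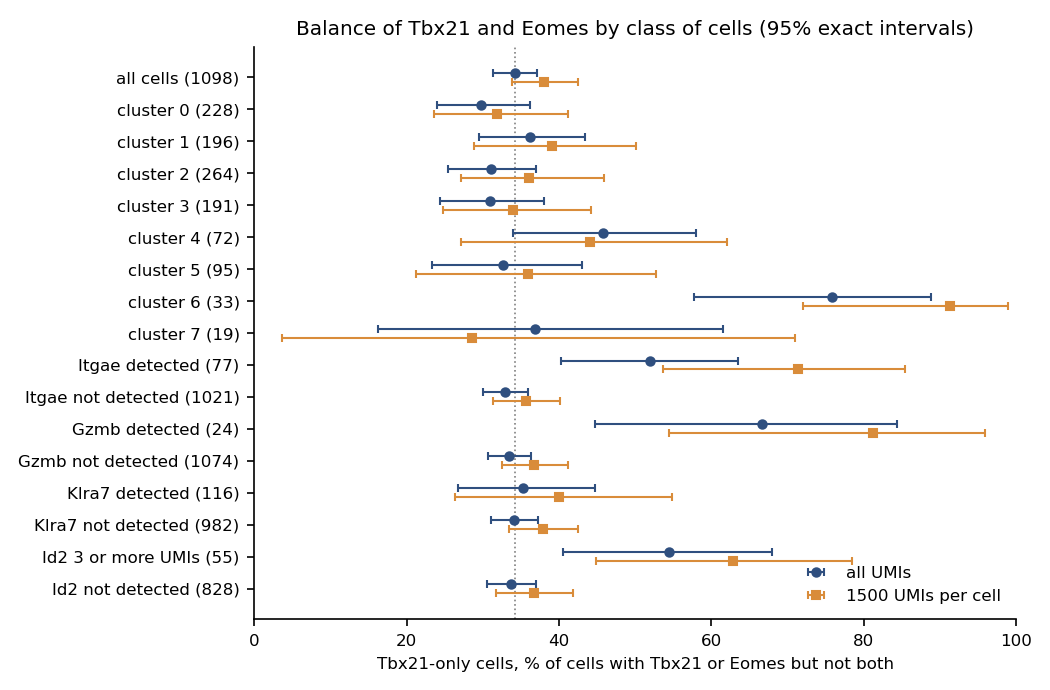
Tbx21-only cells as a percent of cells with Tbx21 or Eomes but not both (horizontal axis) in each class of cells, whose number of such cells is in parentheses; circles use all UMIs, squares 1500 UMIs per cell, bars are 95% exact intervals and the dotted line is the share in all cells, 34.2%. Cluster 6 is highest at 75.8%, and cells with Gzmb (66.7%), at least 3 Id2 UMIs (54.5%) or Itgae (51.9%) lie above the line.

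Between Tbx21-only and Eomes-only cells, 0.628% of genes were at least 2-fold higher and 0.594% at least 2-fold lower. The 4 other regulators were compared with that background, and 1 of them, Bhlhe40, passed 2-fold, with 18 against 10 UMIs, a ratio of 3.37 (1.48 to 8.18). Outside cluster 6, where 0.452% of genes passed on the higher side, it was 2.93 (1.23 to 7.30). Rora had a ratio of 2.0 (0.925 to 4.34), Id2 of 1.59 (1.33 to 1.90) and Zeb2 of 0.749 (0.172 to 2.60). Outside cluster 6 the Id2 ratio was 0.902 (0.719 to 1.13) and that of Rora 1.26 (0.480 to 3.12), and Zeb2 had 0 UMIs in Tbx21-only and 10 in Eomes-only cells. The genes named next had 50 UMIs or more and a UMI in 10% or more of the cells in the class where they stood higher. S100a4, a calcium-binding protein of effector and migrating T cells, was at 104 CPM in Tbx21-only and 22.7 in Eomes-only cells, a ratio of 4.58 (3.52 to 6.01), and of 2.40 (1.67 to 3.47) outside cluster 6. The chemokine gene Ccl4 had a ratio of 3.23 (2.55 to 4.11), with 89 of its 195 UMIs in Tbx21-only cells coming from 1 cell. Ly6a, Capg and Itgae had ratios of 2.10, 2.09 and 1.99; outside cluster 6 these were 1.51 (1.26 to 1.80), 1.29 (0.944 to 1.74) and 1.37 (0.873 to 2.12). Among list genes found in fewer cells, Gzma had a ratio of 7.49 (5.05 to 11.4), Lgals3 of 4.14 (2.71 to 6.46) and Egr1 of 2.65 (1.53 to 4.68).

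Gzmb had 112 against 12 UMIs, a ratio of 17.5 (9.62 to 34.9). As 36 of the 112 came from 1 cell, the share of cells is the safer measure: 4.26% of Tbx21-only and 1.11% of Eomes-only cells. Under the same limits on UMIs and cells, the genes highest in Eomes-only cells were Mtfr1, Ccdc117, Strn4, Dctn1 and Cdk5rap1, with ratios of 0.503 to 0.567. The classes had similar depth, 4864 and 4799 UMIs. Cells with both factors were deeper, at 5705 UMIs, and 15.1% of them had at least 2 TRB sequences, against 7.64% of cells with neither. Cluster 6 held 6.65% of Tbx21-only and 1.11% of Eomes-only cells.

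Pairs of regulators were compared with the product of their shares. Of the 15 pairs, 12 were found in the same cell more often than the product gives and 7 more than 1.5 times as often. Such an excess was common in this library. Of all genes, 62.4% were found with Id2 above the product, 88.6% with Tbx21, 86.5% with Eomes, 60.3% with Zeb2, 57.7% with Bhlhe40 and 62.6% with Rora. After thinning, when these shares were 65.3%, 51.2%, 50%, 45.0%, 55.7% and 57.7%, 9 pairs were above the product and 5 above 1.5 times. Id2 and Rora were together in 52 cells, where the product gives 22.5, so that 54.7% of Rora-positive cells (44.2 to 65.0) and 22.7% of the others had Id2. Id2 and Bhlhe40 were together in 34 cells against 14.9, Id2 and Zeb2 in 18 against 8.28, Bhlhe40 and Rora in 9 against 1.83, and Zeb2 and Rora in 6 against 1.02. Within cluster 6, Id2 and Rora were together in 28 cells against 27.4. With Id2 in 80.7% of its cells and Rora in 34, an excess had little room to show there. In the clusters other than 4 and 6, Id2 and Rora were together in 9 cells against 5.23. All 3 pairs below the product included Eomes, with 18 cells against 26.2 for Rora, 16 against 17.4 for Bhlhe40 and 208 against 213 for Id2. In the clusters other than 4 and 6 the same 3 pairs were above it. There Eomes was found with Rora in 14 cells against 9.45, with Bhlhe40 in 14 against 10.4 and with Id2 in 177 against 147. Tbx21 and Eomes were together in 179 cells against 153, and after thinning in 27 against 24.9.

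The genes most like each regulator were taken as those whose share in thinned cells was highest in cells with the regulator relative to cells without. For Id2, among 3428 genes in 377 positive cells, these were the skin-homing chemokine receptor gene Ccr10 (5.57% against 0.332%, a ratio of 16.8), Ttc39c (15.7), the galectin gene Lgals3 (15), Gzmb (13.9) and the granzyme gene Gzmk (11.2). For Rora the first was Id2 itself, in 58.5% of 41 thinned Rora-positive cells and 11.6% of the others, a ratio of 5.06, ahead of the chemokine receptor gene Cxcr6 at 2.73 and S100a6 at 2.28. The Tbx21 and Eomes lists were flatter. For Tbx21 they were Gm29243 (3.63), Ctps2 (2.55), CAAA01147332.1 (2.36), Ranbp3 (2.26) and Klrk1, the NKG2D receptor gene (2.24). For Eomes they were Khsrp, Chchd4, Lmnb1, Gfpt1 and Prr14l, at 2.46 to 1.99. For Bhlhe40, with 32 thinned cells and 90 genes that could enter, the highest was S100a11 at 2.04, and for Zeb2, with 19 cells, no gene could enter. The lists rest on few cells and are a description of this library.

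Gene lists for each regulator's field were read the same way in cells with and without it, over all clusters together. Cluster 6, led by genes such as Lgals3, Itga1, Gzma and S100a4, held 121 of the 773 Id2-positive cells. It also held 34 of the 95 Rora-positive and 12 of the 901 Eomes-positive cells. The part of this cluster in the list values was not tested. With Id2, 8 of 22 residency genes were at least 2-fold higher and none lower, at a median log2 ratio of 0.56 against 0.08 for all genes, of which 1.24% were higher and 0.0955% lower. This list holds genes that resident cells keep up and genes they keep down; Lgals3 had a ratio of 10.2 and Ccr10 of 9.26, and the chemokine receptor gene Ccr7 of 0.830. Of 16 genes tied to Zeb2 and terminal effectors, 6 were higher with Id2, with S100a4 at 13.4 and the granzyme gene Gzma at 9.32. The E protein genes Tcf12 and Tcf3, whose products Id2 blocks, had ratios of 1.07 (0.903 to 1.28) and 1.02 (0.863 to 1.2), and Id3 of 0.831 (0.748 to 0.921). In cluster 6, Id3 was at 63.3 CPM against 157 elsewhere, and in cluster 4 at 259 against 140, so the clusters with most Id2 had opposite Id3 levels.

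With Eomes, 7 of the 22 residency genes were at least 2-fold lower and none higher, at a median of -0.35 against -0.04 for all genes, of which 0.743% were lower and 0.0424% higher. Ccr10 had a ratio of 0.208 and the inhibitory receptor gene Ctla4 of 0.264. Of 19 genes tied to T-box factors, 3 were lower with Eomes, including Cx3cr1 (0.163) and Gzmb (0.246), and none higher; the granzyme gene Gzmm had a ratio of 1.51 (1.37 to 1.68). With Tbx21, 2 of those 19 were higher, Gzmb at 3.49 and Ccl4 at 2.26, against 0.0955% of all genes, and none lower, against 0.424%; the cells that held many UMIs of Gzmb or Ccl4 are among them. With Rora, 10 of 22 residency genes were higher and 1 lower, against 4.6% and 5.63% of genes; Lgals3 had a ratio of 14.4 and the integrin gene Itga1 of 11.3, and Id3 of 0.529 (0.370 to 0.735).

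With Itgae, where 3.69% of all genes were higher and 0.679% lower, 4 of 33 other regulators of T cell fate were higher, among them Litaf at 5.99 and Ikzf2 at 5.89. Their median log2 ratio was 0.19 against 0.20 for all genes, and Klf3 and Stat4 had ratios of 0.655 and 0.772. Residency genes other than Itgae were higher in 12 of 21, with Csf1 at 27.9 and Itga1 at 18.6. Of 9 genes tied to Rora and type 17 cells, 5 were higher, led by Ccr10 at 12.1 and Arntl, a clock gene, at 2.29. Of 13 genes tied to Bhlhe40, 3 were higher, with Irf4 at 2.70 and Ifng at 2.68, and Myc had a ratio of 0.767. Of the 10 Ly49 and related receptor genes tested, Klrk1 and Klrc1 were higher (3.92 and 2.54), and Klra7 and Klra9 lower (0.418 and 0.306).

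A last class of cells was set by clones also seen in skin. A clone was a set of cells with the same receptor sequences, and 31 clones were found in both tissues; 28 lymph node cells of the gene table, from 26 clones, belonged to them. These cells were compared with 2107 cells of clones found in the lymph node alone, where 23.9% of genes were higher and 28.2% lower at 2-fold. Id2 was found in 27 of the 28 cells and in 25 of the 26 clones, at 1822 CPM, against 78.8 CPM in the other clones. Bhlhe40 had 7 UMIs in 4 of the cells, a ratio of 23.1 (8.78 to 51.9). Zeb2 had 2 UMIs (ratio 15, 1.69 to 62.0) and Eomes 1 (0.172, 0.00435 to 0.961). With Id2, Bhlhe40, Rora and Zeb2, 4 regulators were on the higher side.

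Cluster 6 held 24 of the 28 cells. Within it, Id2 was at 1918 CPM in the 24 cells of shared clones and 967 in 45 cells of lymph node clones, a ratio of 1.98 (1.54 to 2.54). There 1 regulator, Bhlhe40, passed 2-fold, with 4 UMIs in 2 cells against 3 UMIs, a ratio of 3.49 (0.591 to 23.9). Of the 1545 genes with at least 20 UMIs in this comparison, 6.15% were higher. Bhlhe40 has too few UMIs to be among them. Tbx21 had a ratio of 1.12 there (0.354 to 3.11). Between expanded and single lymph node clones the ratio of Id2 was 1.08 (0.69 to 1.63, from 24 UMIs in 100 cells of expanded clones), that of Tbx21 1.10 and that of Eomes 0.778 (0.466 to 1.22). Against the 100 cells of expanded lymph node clones, Id2 in shared clones stood at a ratio of 21.4 (13.7 to 34.6). The shared-clone cells were shallow, at a median of 2281 UMIs against 4556.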

How the data were processed

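The authors deposited UMI counts of each gene in each cell as 1 table of whole numbers, with the 4 lanes pooled; Bowtie, RSEM and mm10 are named in the submitters' processing notes without version or role. No gene of the table was seen in fewer than 14 cells. Receptor tables, also deposited, list contigs with their UMI counts, and their tissue was read from their names. Members and lists were chosen with earlier results of these data known.

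UMIs were summed over classes of cells and divided by the class total (CPM). Ratios carry exact conditional binomial intervals, CPM exact Poisson and shares Clopper-Pearson intervals (scipy 1.17.1). UMIs are treated as independent, although 1 cell can hold many. Genes with at least 20 UMIs were called at 2-fold with a prior of 1 CPM, and the regulators at any number of UMIs. Printed ratios have no prior. Calls were checked on simulated data.

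Clusters came from scanpy 1.11.5 (Leiden, igraph 0.11.9; 2000 variable genes, 30 components, 15 neighbours, resolution 1.0). Clusters are given by number and were not named. No doublet caller was used; cells with at least 2 TRB sequences were left out as an alternative. A clone needed 1 TRB and the top TRA nucleotide CDR3 in common. Thinning drew 1500 UMIs per cell, leaving out 176 cells.

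Named genes are the members and partners, for each member the 5 genes with the highest share ratio (at least 5% and 20 thinned cells with the member), the 5 most different each way between Tbx21-only and Eomes-only cells (at least 50 UMIs and 10% of cells of the higher class), and the 2 highest and 2 lowest of each list with at least 50 UMIs. Receptor, mitochondrial and ribosomal protein genes were left out of these rankings.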

Additional observations from a re-analysis of the deposited data

How the results depend on the processing

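No paired analysis was possible because the lanes that share numbers are runs of 1 library and no result comes from a test over samples. Of the summary values under all alternatives, 54 stayed within the limit set for calling them equal, 9 moved and 0 reversed; for single regulators the counts were 206, 54 and 2. The 4 regulators higher with Itgae became 3 after thinning, 2 with a prior of 10 CPM and 2 outside clusters 4 and 6, with Zeb2 counted there from 3 UMIs. The 5 higher with Gzmb became 3 outside cluster 6 and 3 outside clusters 4 and 6, with Zeb2 counted from 1 UMI in each. They became 4 with a prior of 10 CPM and 4 when classes were scaled by the median ratio over genes. In both, Tbx21 fell below 2-fold (log2 ratios of 0.97 and 0.84). With Klra7, 0 became 1 after thinning (Bhlhe40), and in shared clones 4 became 1 within cluster 6. The Tbx21 share went from 34.2% to 38.1% after thinning. Genes at 2-fold between Tbx21-only and Eomes-only cells numbered 109, but 177 without the filter on low counts and 29 with at least 50 UMIs. Both reversals rest on no UMI on 1 side: Rora with Gzmb outside clusters 4 and 6 (log2 ratio -1.85) and Zeb2 in shared clones after thinning (-2.08). The cause of the other shifts was not tested. Restricting cells to or from clusters, to cells with a TRB contig, and breaking contig ties by reads were chosen after seeing the data. Depth limits Zeb2, Bhlhe40 and Rora most, each with at most 102 UMIs.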
